A study of Homo sapiens with 34 samples.

Results

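The 10 genes described here take glucose into the cell and break it down to lactate: the glucose transporters SLC2A1 (GLUT1), SLC2A3 (GLUT3) and SLC2A4 (GLUT4), the hexokinases HK1 and HK2, the phosphofructokinase subunits PFKM and PFKP, the pyruvate kinase PKM, and the lactate dehydrogenase subunits LDHA and LDHB. They were chosen by name, 10 of the 23189 gene symbols in the count table, and each was read from the RefSeq row with its largest total count. All 10 passed the filter on low counts in each comparison below. They were followed in H1 human embryonic stem cells (ESCs), an established line, at days 0, 2, 6 and 10 of differentiation toward cardiomyocytes (CMs).

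The cells had been infected with lentivirus and selected with puromycin. The NKX2-5 shRNA, ZEB2 shRNA and ZNF503 shRNA cells each carried 1 shRNA against a cardiac transcription factor gene, in a line kept for its knockdown, and the WT cells carried either an empty vector or a GFP shRNA. In all lines the GSK3 inhibitor CHIR99021 was given first, then the Wnt inhibitor IWP2, in medium without insulin, and insulin was added between the samples of day 6 and day 10. Each of the 15 groups held 2 libraries, 30 of the 34 in the series. Replicates 3 and 4 stand for WT and ZEB2 shRNA cells at day 10, and replicates 1 and 2 stand for every other group. The labels do not say whether these sets of replicates were handled apart. Such a difference could not be told apart from the line where NKX2-5 shRNA cells are compared at day 10. Nor could it be told apart from the day in the steps of WT and ZEB2 shRNA cells to day 10. Day 10 of the ZNF503 shRNA line was not analysed here.

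Total counts ran from 9189943 to 90814577 per library, with a median of 32191176, and the 6 libraries of day 10 held 9189943 to 29549874. The targeted gene was lower in its own line from day 6. NKX2-5 had 0.761 and 0.995 counts scaled to library size (CPM) in NKX2-5 shRNA cells at day 6 against 50.3 and 84.3 in WT, ZEB2 had 54.4 and 57.3 against 93.9 and 97.0, and ZNF503 had 0.613 and 0.650 against 8.73 and 9.31. ZNF503 was also low in NKX2-5 shRNA cells at day 6 (0.590 and 0.901 CPM). The summed level of 9 cardiomyocyte markers was 34928 to 43101 CPM in WT cells at day 6 and 69348 to 78466 at day 10. At day 6 it was 7368 to 7526 in NKX2-5 shRNA, 16857 to 17821 in ZEB2 shRNA and 10074 to 10569 in ZNF503 shRNA cells, with all 9 markers above 3 counts in every group. A sum of 8 hepatic and endoderm markers was already apart at day 6, at 4243 to 4423 CPM in NKX2-5 shRNA and 3423 to 3447 in ZNF503 shRNA cells against 391 to 814 in WT, while ZEB2 shRNA cells, at 432 to 649, overlapped WT. In ZEB2 shRNA cells 4 mesendoderm markers summed to 171 to 186 CPM at day 6 against 12.5 to 13.5 in WT. At day 10 the cardiomyocyte sum was 3254 to 4273 in NKX2-5 shRNA and 13166 to 18098 in ZEB2 shRNA cells, where the hepatic and endoderm markers summed to 29563 to 41779 and 7396 to 8778, against 1573 to 3882 in WT. These are bulk libraries, so fewer cells of a type and less RNA per cell cannot be told apart.

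Glucose enters through the SLC2A facilitative transporters and is trapped by hexokinase as glucose 6-phosphate. Phosphofructokinase then commits it to glycolysis, pyruvate kinase makes pyruvate, and lactate dehydrogenase interconverts pyruvate and lactate. Most of these steps have isoenzymes with different tissue use: GLUT1 and GLUT3 work without insulin and GLUT4 moves to the surface of muscle and fat cells in response to it, HK1 is the widely expressed hexokinase and HK2 the inducible one, PFKM is the phosphofructokinase subunit of muscle, LDHB prevails in heart, and LDHA, the main form of skeletal muscle, favours lactate production. Pluripotent cells rely heavily on glycolysis, and CMs come to depend on oxidative metabolism as they mature.

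PKM, at chr15:72491370-72524160 (GRCh37, minus strand), shows how isoenzymes arise within 1 gene. Its PKM1 and PKM2 forms differ by a pair of mutually exclusive exons of 167 bases, of which 105 are identical (62.9%). Both are printed 5′ to 3′ from the GRCh37 genome, at the GENCODE coordinates chr15:72495363-72495529 (PKM1) and chr15:72494795-72494961 (PKM2), both on the minus strand, because the counts below separate the rows that hold them. Capitals mark the 62 positions at which they differ.
PKM1 exon: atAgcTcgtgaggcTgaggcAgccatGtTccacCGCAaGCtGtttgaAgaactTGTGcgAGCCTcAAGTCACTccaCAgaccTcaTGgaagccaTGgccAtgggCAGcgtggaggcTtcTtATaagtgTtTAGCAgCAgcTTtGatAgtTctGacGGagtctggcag
PKM2 exon: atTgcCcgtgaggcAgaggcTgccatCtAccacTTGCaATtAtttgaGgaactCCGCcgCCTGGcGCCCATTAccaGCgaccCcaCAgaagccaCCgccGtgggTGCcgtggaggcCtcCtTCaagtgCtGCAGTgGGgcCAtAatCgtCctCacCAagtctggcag

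LDHA, HK2, SLC2A1 and HK1 fell from day 0 to day 2 and rose from day 6 to day 10 in WT cells, while LDHB fell in that last step, so the promoters of LDHA, HK2, SLC2A1 and LDHB are shown next. They run from 250 bases before to 50 after the first start listed by RefSeq (GRCh38.p14), at chr11:18394313-18394612 (plus strand), chr2:74833877-74834176 (plus), chr1:42958819-42959118 (minus) and chr12:21657793-21658092 (minus). Capitals mark ACGTG on either strand (CACGT on the strand printed), and CACGTG holds it on both strands. ACGTG is a form of the core of the site bound by hypoxia-inducible factors. The form GCGTG was neither marked nor counted. Of 35116 RefSeq promoters of 300 bases, with every listed start counted, 7518 (21.4%) held ACGTG. Promoters were found for 8 of the 10 genes (not SLC2A3 and SLC2A4), and at the first start 2 of the 8, HK2 and LDHA, held it. SLC2A1 did not hold it, and HK1 did not at any of its 7 starts. At later starts it was found for HK2, PFKM and PFKP. Any part of this motif in the changes was not tested.
LDHA promoter: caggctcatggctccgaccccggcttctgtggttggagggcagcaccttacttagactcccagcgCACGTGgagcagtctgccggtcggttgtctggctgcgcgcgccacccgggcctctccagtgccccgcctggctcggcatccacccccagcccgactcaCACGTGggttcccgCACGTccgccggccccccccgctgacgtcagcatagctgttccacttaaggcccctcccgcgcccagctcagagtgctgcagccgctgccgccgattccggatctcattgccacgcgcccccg
HK2 promoter: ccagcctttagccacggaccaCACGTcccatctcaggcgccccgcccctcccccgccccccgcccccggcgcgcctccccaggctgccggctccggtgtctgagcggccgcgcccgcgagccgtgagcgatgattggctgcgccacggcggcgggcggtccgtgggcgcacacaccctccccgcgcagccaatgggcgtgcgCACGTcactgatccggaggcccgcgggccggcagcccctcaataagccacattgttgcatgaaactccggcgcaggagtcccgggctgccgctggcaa
SLC2A1 promoter: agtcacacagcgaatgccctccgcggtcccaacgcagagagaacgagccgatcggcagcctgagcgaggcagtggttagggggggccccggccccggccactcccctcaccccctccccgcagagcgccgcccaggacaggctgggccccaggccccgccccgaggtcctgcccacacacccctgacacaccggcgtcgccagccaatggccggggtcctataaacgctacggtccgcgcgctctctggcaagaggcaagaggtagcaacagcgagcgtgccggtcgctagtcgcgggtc
LDHB promoter: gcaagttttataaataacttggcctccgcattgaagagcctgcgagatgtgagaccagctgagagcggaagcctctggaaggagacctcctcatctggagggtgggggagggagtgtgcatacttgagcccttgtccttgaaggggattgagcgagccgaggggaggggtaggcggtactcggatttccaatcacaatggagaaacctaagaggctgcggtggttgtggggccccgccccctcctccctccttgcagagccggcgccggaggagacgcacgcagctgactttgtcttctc

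In WT cells SLC2A1, HK1, HK2 and LDHA fell from day 0 to day 2 and rose again from day 6 to day 10, to levels above both day 0 libraries. Both phosphofructokinase subunits rose from day 2 to day 6 and again to day 10, SLC2A3 peaked at day 6, and LDHB fell in the last step. From day 0 to day 2, 6 of the 10 genes passed the test (edgeR, adjusted p below 0.05 over all genes), 1 higher and 5 lower, against 44.1% of all 17217 genes tested. From day 2 to day 6, 6 did, 5 higher and 1 lower, against 49.8%. From day 6 to day 10 all 10 did, 8 higher and 2 lower, against 57.5%, with a median absolute log2 fold change of 1.14 against 0.69 over all genes.

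**Figure D1:**
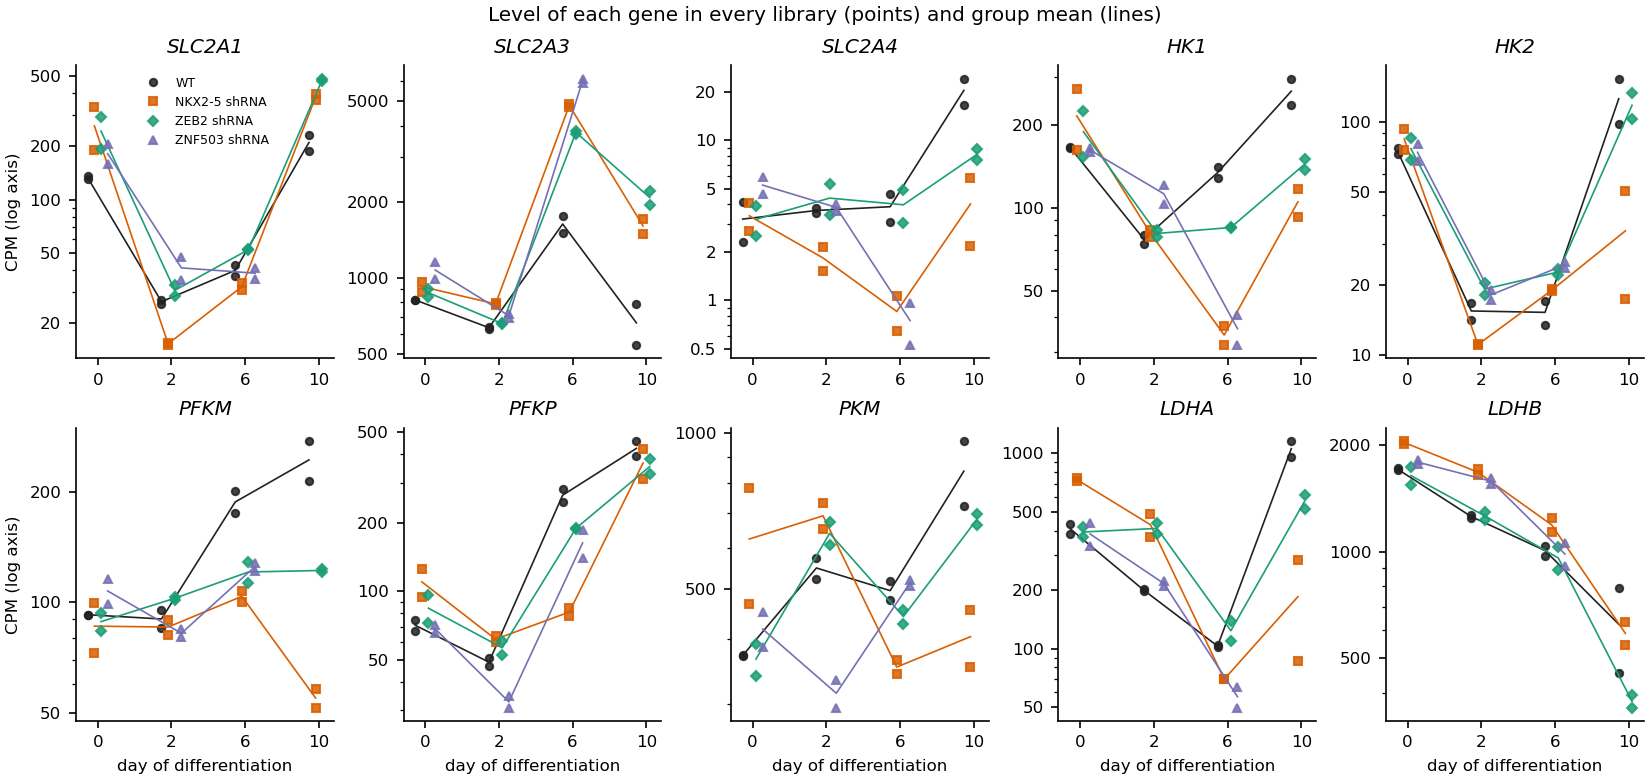
Level of each of the 10 genes in CPM (log axis) by day of differentiation; each point is 1 library, lines join the means of 2 libraries, and colours give the line. WT cells (black) reach their highest PFKM, PFKP, PKM and LDHA levels at day 10, and SLC2A3 at day 6 is higher in all 6 shRNA libraries than in both WT libraries.

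SLC2A1, at chr1:43391024-43424564 (minus strand), encodes the basal transporter of most cells. Its level in WT libraries was 130 and 136 CPM at day 0, 27.3 and 25.8 at day 2, 37.1 and 42.7 at day 6, and 233 and 188 at day 10. The first step was a fall by 2.29 ± 0.13 on the log2 scale (SE, adjusted p = 7.77e-07) and the last a rise of 2.42 ± 0.13 (adjusted p = 7.98e-07), so that day 10 lay above day 0 in both libraries. SLC2A3, the high-affinity transporter, at chr12:8071826-8171603 (minus strand), ran otherwise, with 821 and 815 CPM at day 0, 629 and 642 at day 2, 1509 and 1761 at day 6, and 785 and 543 at day 10. It was highest at day 6, after a rise of 1.35 ± 0.15 from day 2 (adjusted p = 4.9e-05), and fell by 1.28 ± 0.15 to day 10 (adjusted p = 7.86e-05). Its near-identical paralog SLC2A14 followed it with a Pearson correlation of 0.998 over the 15 group means, and since each read was placed at 1 best hit, reads of the pair may have been exchanged, which makes the split between them uncertain. SLC2A4, at chr17:7185037-7191576 (plus strand), had only 13 to 431 counts per library. In WT cells it went from 2.33 to 4.60 CPM over days 0, 2 and 6 to 16.7 and 24.3 at day 10, a rise of 2.44 ± 0.33 from day 6 (adjusted p = 0.000156).

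HK1, at chr10:71029740-71161640 (plus strand), had 166 and 166 CPM at day 0, 73.9 and 80.0 at day 2, 141 and 128 at day 6, and 295 and 236 at day 10. It fell by 1.08 ± 0.12 in the first step (adjusted p = 8.08e-05) and rose by 0.79 ± 0.12 (adjusted p = 0.000385) and 1.00 ± 0.12 (adjusted p = 8.18e-05) in the next ones. HK2, at chr2:75061254-75120486 (plus strand), fell further and came back later. It had 72.8 and 77.4 CPM at day 0, 14.1 and 16.8 at day 2, 13.5 and 17.0 at day 6, and 154 and 98.2 at day 10, with a rise of 3.07 ± 0.21 in the last step (adjusted p = 2.94e-06). Per kilobase of transcript HK1 remained the higher of the pair in all 30 libraries, since the ratio of HK2 to HK1 never reached 1.

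PFKM, the muscle phosphofructokinase at chr12:48498922-48540187 (plus strand), held 92.8 and 92.5 CPM at day 0 and 95.1 and 85.3 at day 2, then 200.2 and 175 at day 6 and 274 and 213 at day 10. Its rise from day 2 to day 6 was 1.04 ± 0.13 (adjusted p = 0.000104), and the further 0.40 ± 0.13 to day 10 (adjusted p = 0.0241) did not pass without WT day 6 replicate 2 (0.28) or WT day 10 replicate 3 (0.20). PFKP, the platelet-type subunit at chr10:3108525-3179910 (plus strand), changed more. It had 67.0 and 74.8 CPM at day 0, 50.8 and 47.0 at day 2, 281 and 247 at day 6, and 456 and 392 at day 10. From day 2 to day 6 it rose by 2.42 ± 0.12 (adjusted p = 1.21e-07), the largest rise of the 10 genes in that step. Its fall by 0.51 ± 0.12 from day 0 to day 2 (adjusted p = 0.00634) did not pass without WT day 0 replicate 2 (-0.43) or WT day 2 replicate 2 (-0.46).

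PKM had 371 and 374 CPM at day 0 in WT cells, 524 and 575 at day 2, 517 and 476 at day 6, and 964 and 723 at day 10. It rose by 0.59 ± 0.13 from day 0 to day 2 (adjusted p = 0.00496, not passed without WT day 2 replicate 2, at 0.51) and by 0.78 ± 0.13 from day 6 to day 10 (adjusted p = 0.000668). LDHA, at chr11:18416107-18429972 (plus strand), had 387 and 436 CPM at day 0, 197 and 202 at day 2, 105 and 101 at day 6, and 1156 and 959.5 at day 10. After falls by 1.02 ± 0.11 (adjusted p = 7.1e-05) and 0.96 ± 0.11 (adjusted p = 6.21e-05), it rose by 3.38 ± 0.12 (adjusted p = 1.68e-07), the largest change of any of the 10 genes in WT cells between neighbouring days. LDHB, at chr12:21788276-21910791 (minus strand), had 1695 and 1723 CPM at day 0, 1270 and 1242 at day 2, 1040 and 974 at day 6, and 792 and 455 at day 10. Its early steps did not pass the test, and the last was a fall by 0.67 ± 0.20 (adjusted p = 0.0141), which did not pass without WT day 6 replicate 1 (-0.63). The size of that fall rested on single libraries: it was -1.13 without WT day 10 replicate 3 and -0.34 without WT day 10 replicate 4. Over longer spans LDHB also passed as lower, from day 0 to day 6 and from day 0 to day 10. In the fits without 1 library those changes were -0.80 to -0.70 and -1.87 to -1.09.

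The shRNA lines shared some of these steps and not others. From day 0 to day 2, 4 genes passed in NKX2-5 shRNA cells (all lower, against 28.3% of all genes), 7 in ZEB2 shRNA cells (1 higher and 6 lower, against 56.9%) and 8 in ZNF503 shRNA cells (all lower, against 31.6%). From day 2 to day 6, 6 passed in NKX2-5 shRNA cells (2 higher, against 47.9%), 6 in ZEB2 shRNA cells (3 higher, against 48.7%) and 9 in ZNF503 shRNA cells (5 higher, against 65.9%). From day 6 to day 10, 8 passed in NKX2-5 shRNA cells (5 higher, against 49.1%) and 9 in ZEB2 shRNA cells (7 higher, against 63.3%). SLC2A1 fell by 4.02 ± 0.27 from day 0 to day 2 in NKX2-5 shRNA cells, to 15.6 and 15.1 CPM, and rose by 3.49 ± 0.26 from day 6 to day 10. SLC2A3 rose from day 2 to day 6 in every shRNA line, by 2.59 ± 0.12 in NKX2-5 shRNA, 2.50 ± 0.10 in ZEB2 shRNA and 3.06 ± 0.12 in ZNF503 shRNA cells. Other steps ran opposite to WT. HK1 fell from day 2 to day 6 in NKX2-5 shRNA (-1.25, adjusted p = 0.00452) and ZNF503 shRNA cells (-1.65, adjusted p = 9.11e-08), where it rose in WT. PKM fell from day 0 to day 2 in ZNF503 shRNA cells (-0.37, adjusted p = 0.0233), and PFKM fell from day 6 to day 10 in NKX2-5 shRNA cells (-0.98, adjusted p = 0.00331), steps in which both rose in WT. The PKM call was lost without ZNF503 shRNA day 0 replicate 2 (-0.26) or day 2 replicate 1 (-0.26). No test set the change of a line over these single steps against that of WT. LDHA, which fell from day 0 to day 2 in WT, had a change of 0.02 in ZEB2 shRNA cells (adjusted p = 0.907).

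Against WT at day 0, the NKX2-5 shRNA line stood apart in 4 genes, all higher: SLC2A1, PFKP, PKM and LDHA passed, against 15.9% of all 16891 genes tested. LDHA, the enzyme of lactate production, was at 721 and 748 CPM against 387 and 436 in WT, higher by 0.81 ± 0.12 (edgeR, adjusted p = 0.00153). Without NKX2-5 shRNA day 0 replicate 2 the difference in SLC2A1 moved from 0.95 to 0.49, in PKM from 0.72 to 0.30 and in PFKP from 0.61 to 0.39, none of which passed, and those 3 calls were also lost without either WT library, while LDHA stayed past the threshold without any 1 library. A sum of 5 smooth muscle and mesenchyme markers was 120 and 259 CPM in these NKX2-5 shRNA libraries and 248 and 262 in those of ZEB2 shRNA cells, against 33.0 and 36.4 in WT, and its part in the differences was not tested. In ZEB2 shRNA cells 0 of the 10 passed with edgeR and 0 with DESeq2, against 3.93% of all genes with edgeR, and 1 had an unadjusted p under 0.05. In ZNF503 shRNA cells SLC2A3 alone passed (0.39 ± 0.09, adjusted p = 0.0307), against 7.53%, and this call was lost without any 1 of the 4 libraries, at 0.28 to 0.49.

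At day 2 the most distinct gene was LDHA, which was raised in the NKX2-5 and ZEB2 shRNA lines. Its level was 487 and 375 CPM in NKX2-5 shRNA, 438 and 388 in ZEB2 shRNA and 223 and 209 in ZNF503 shRNA cells, against 197 and 202 in WT. The difference was 1.09 ± 0.10 in NKX2-5 shRNA (adjusted p = 9.76e-06) and 1.02 ± 0.10 in ZEB2 shRNA cells (adjusted p = 0.000115), where LDHA was the only 1 of the 10 genes to pass and 0.49% of all 16521 genes did. In NKX2-5 shRNA cells 8 genes passed, 5 higher and 3 lower, against 26.7% of all genes. SLC2A1, at 15.6 and 15.1 CPM against 27.3 and 25.8, was lower by 0.81 on the log2 scale (-0.81 ± 0.14, adjusted p = 0.000901). In that comparison SLC2A1, LDHA and LDHB passed with each library left out in turn. The calls of PFKP (0.31, with 0.24 to 0.37 over the fits without 1 library) and HK2 (-0.50), SLC2A4 (-1.05), PKM (0.31) and SLC2A3 (0.29) were lost in at least 1 of those fits: PFKP without any of the 4 libraries, HK2 without either NKX2-5 shRNA library or WT replicate 2, SLC2A4 without NKX2-5 shRNA replicate 1 or either WT library, PKM without NKX2-5 shRNA replicate 2 (0.20) or WT replicate 1, and SLC2A3 without WT replicate 1. In ZNF503 shRNA cells 5 genes passed, 3 higher and 2 lower, against 26.9%. Of those higher, HK1 was at 104 and 121 CPM against 73.9 and 80.0 in WT, with differences of 0.37 to 0.64 over the fits without 1 library. PKM, at 296 and 334 CPM against 524 and 575 in WT, was lower there (-0.84 ± 0.10, adjusted p = 1.4e-05), as was PFKP (-0.62 ± 0.11, adjusted p = 0.000602), both without any 1 library too, while the higher SLC2A1 lost its call without ZNF503 shRNA replicate 1 (0.38, from 0.60) and the higher LDHB without WT replicate 2 (0.28, from 0.29).

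At day 6, when the cells express cardiac progenitor genes, SLC2A3 was higher and HK1, PFKM and PFKP were lower than WT in all 3 shRNA lines. Of the 10 genes, 7 passed in NKX2-5 shRNA cells (1 higher and 6 lower, against 49.1% of all 16443 genes), 5 in ZEB2 shRNA cells (2 higher and 3 lower, against 11%) and 7 in ZNF503 shRNA cells (2 higher and 5 lower, against 55.7%). With so large a share of all genes called in NKX2-5 and ZNF503 shRNA cells, the count by itself sets the 10 genes little apart. The 3 comparisons share the 2 WT libraries.

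**Figure D2:**
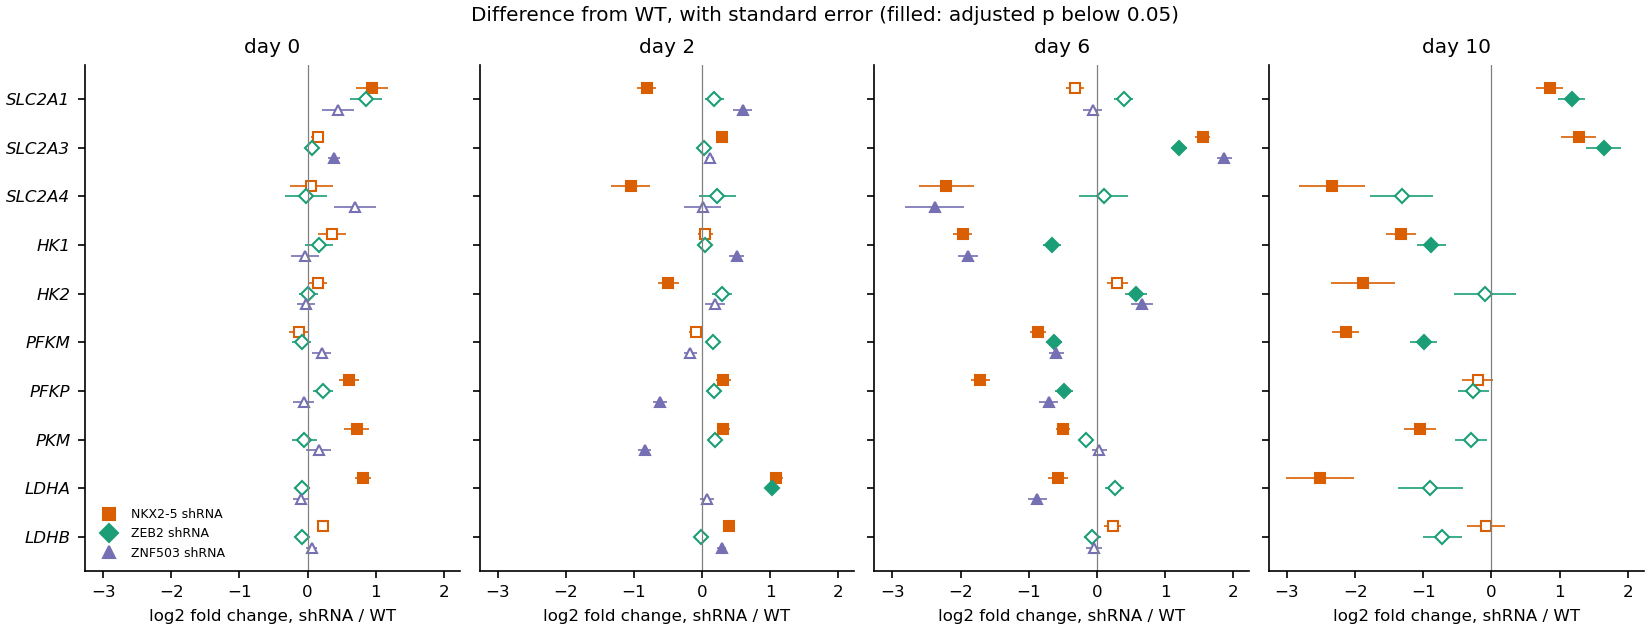
Log2 fold change of each gene against WT at days 0, 2, 6 and 10, with the standard error of the edgeR fit; filled symbols have an adjusted p below 0.05 and colours give the shRNA line. At days 6 and 10 SLC2A3 lies to the right of 0 and HK1 and PFKM to the left in every line measured.

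SLC2A3 reached 4886 and 4762 CPM in NKX2-5 shRNA, 3717 and 3825 in ZEB2 shRNA and 5911 and 6160 in ZNF503 shRNA cells, against 1509 and 1761 in WT. The groups did not overlap, and the differences were 1.55 ± 0.11 (adjusted p = 2.81e-07), 1.21 ± 0.11 (adjusted p = 2.18e-05) and 1.87 ± 0.11 (adjusted p = 8.8e-08), each kept without any 1 library. The paralog SLC2A14 was higher as well, by 1.70 ± 0.11, 1.25 ± 0.11 and 1.90 ± 0.11 (adjusted p = 1.15e-07, 1.56e-05 and 6.74e-08), from 183 CPM in WT cells to between 436 and 688. SLC2A1 passed in none of these 3 comparisons, with 30.7 to 52.6 CPM over the 6 shRNA libraries. SLC2A4, the insulin-responsive transporter, was at 1.07 and 0.641 CPM in NKX2-5 shRNA and 0.971 and 0.528 in ZNF503 shRNA cells, against 4.60 and 3.10 in WT. Those levels rest on 13 to 32 counts per library, and the differences were -2.21 ± 0.40 (adjusted p = 0.000665) and -2.38 ± 0.43 (adjusted p = 0.00063). In ZEB2 shRNA cells SLC2A4 had 4.88 and 3.04 CPM, overlapping WT.

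HK1 was at 31.7 and 37.2 CPM in NKX2-5 shRNA and 31.8 and 40.9 in ZNF503 shRNA cells at day 6, and at 85.3 and 84.3 in ZEB2 shRNA cells, against 141 and 128 in WT. The differences were -1.97 ± 0.14 (adjusted p = 3.13e-07), -1.89 ± 0.14 (adjusted p = 5.69e-07) and -0.66 ± 0.14 (adjusted p = 0.00772). HK2, the inducible enzyme, was not lower: it had 18.8 to 25.1 CPM over the 6 shRNA libraries against 13.5 and 17.0 in WT, and passed as higher in ZEB2 shRNA (0.57 ± 0.16, adjusted p = 0.0354) and ZNF503 shRNA cells (0.66 ± 0.16, adjusted p = 0.00358). In NKX2-5 shRNA cells, where HK1 was furthest below WT, HK2 did not pass (0.30 ± 0.16, adjusted p = 0.129).

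PFKP was at 77.8 and 84.4 CPM in NKX2-5 shRNA, 190 and 188 in ZEB2 shRNA and 187 and 139 in ZNF503 shRNA cells, against 281 and 247 in WT. The NKX2-5 shRNA value, lower than WT (-1.71 ± 0.14, adjusted p = 9.1e-07), also differed from that of ZNF503 shRNA (-1.00 ± 0.14, adjusted p = 0.000694) and ZEB2 shRNA cells (-1.23 ± 0.14, adjusted p = 1.56e-05). PFKP was lower than WT by 0.48 in ZEB2 shRNA (-0.48 ± 0.14, adjusted p = 0.0406) and by 0.71 in ZNF503 shRNA cells (-0.71 ± 0.14, adjusted p = 0.000933). PFKM was at 101 to 129 CPM over the 6 shRNA libraries against 200.2 and 175 in WT (differences -0.86 ± 0.11, -0.63 ± 0.11 and -0.59 ± 0.11 in NKX2-5, ZEB2 and ZNF503 shRNA cells, adjusted p = 5.42e-05, 0.00344 and 0.000922). PKM passed only in NKX2-5 shRNA cells (-0.50 ± 0.10, adjusted p = 0.0017), with 343 and 365 CPM against 517 and 476.

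LDHA was at 69.6 and 69.7 CPM in NKX2-5 shRNA and 49.9 and 63.4 in ZNF503 shRNA cells, against 105 and 101 in WT, and at 109 and 138 in ZEB2 shRNA cells. It was lower in NKX2-5 shRNA (-0.57 ± 0.14, adjusted p = 0.00541) and ZNF503 shRNA cells (-0.87 ± 0.14, adjusted p = 0.00032), and did not pass in ZEB2 shRNA cells (0.26 ± 0.14, adjusted p = 0.295). LDHB passed in none of the 3 lines at day 6, with differences of 0.23 ± 0.12, -0.07 ± 0.12 and -0.04 ± 0.12. All 7 calls in NKX2-5 shRNA and all 7 in ZNF503 shRNA cells held without any 1 library. In ZEB2 shRNA cells only SLC2A3 did. There HK1 (-0.66 to -0.58), HK2 (0.43 to 0.62) and PFKP (-0.48 to -0.38) lost their calls without ZEB2 shRNA replicate 1 or 2 or WT replicate 1, and PFKM lost it without ZEB2 shRNA replicate 2 (-0.54).

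Between the shRNA lines at day 6, NKX2-5 and ZNF503 shRNA cells differed in 2 of the 10 genes, PFKP and PKM, both lower in NKX2-5 shRNA cells, against 14.7% of all genes. NKX2-5 and ZEB2 shRNA cells differed in 7 (1 higher and 6 lower in NKX2-5 shRNA), against 44.4%, and ZEB2 and ZNF503 shRNA cells in 5 (4 higher and 1 lower in ZEB2 shRNA), against 49.2%. HK1 was lower in NKX2-5 shRNA than in ZEB2 shRNA cells (-1.31 ± 0.14, adjusted p = 9.92e-06), and was not called between NKX2-5 and ZNF503 shRNA cells (-0.08 ± 0.14, adjusted p = 0.755).

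The change from day 0 to day 6, set against that of WT cells by an interaction term, differed in 8 genes in NKX2-5 shRNA cells (1 higher and 7 lower, against 33.1% of all 18481 genes), in 1 in ZEB2 shRNA cells (against 3.9%) and in 5 in ZNF503 shRNA cells (1 higher and 4 lower, against 30.8%). SLC2A3 was the 1 gene that differed in all 3 lines, by 1.38 ± 0.18, 1.11 ± 0.18 and 1.49 ± 0.18 (adjusted p = 4.16e-06, 0.000653 and 2.39e-06). PFKP rose by 1.92 ± 0.12 in WT cells over these days and had a change of -0.39 ± 0.19 in NKX2-5 shRNA cells (adjusted p = 0.113), a difference between the changes of -2.34 ± 0.24 (adjusted p = 1.39e-07). Of the genes that differed in NKX2-5 shRNA cells, SLC2A1, PFKP, PKM and LDHA were already above WT at day 0, so part of their difference lay at that day.

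At day 10, when WT cultures hold the most cardiac transcripts, the NKX2-5 shRNA cells had less of LDHA, HK2, PFKM, HK1, PKM and SLC2A4 than WT and more of SLC2A1 and SLC2A3. This made 8 of the 10 genes, 2 higher and 6 lower, against 43.9% of all 17004 genes tested. The median log2 fold change over the 10 genes was -1.19, and it was 0.03 over all genes. In ZEB2 shRNA cells 4 passed, SLC2A1 and SLC2A3 higher and HK1 and PFKM lower, against 18.2%. Both comparisons use the same 2 WT libraries. NKX2-5 shRNA and WT cells had different replicate numbers at this day, so line and set of replicates cannot be told apart there.

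SLC2A1 had 364 and 395 CPM in NKX2-5 shRNA and 483 and 467 in ZEB2 shRNA cells at day 10, against 233 and 188 in WT. It was higher by 0.86 ± 0.20 (adjusted p = 0.0115) and 1.18 ± 0.20 (adjusted p = 0.0094). SLC2A3 had 1715 and 1499 CPM in NKX2-5 shRNA and 1951 and 2214 in ZEB2 shRNA cells against 785 and 543, higher by 1.28 ± 0.26 (adjusted p = 0.00685) and 1.65 ± 0.26 (adjusted p = 0.00768). So both transporters that work without insulin were above WT in each of the 4 shRNA libraries. SLC2A4 was at 5.81 and 2.19 CPM in NKX2-5 shRNA and 8.78 and 7.58 in ZEB2 shRNA cells against 16.7 and 24.3 in WT, which passed in NKX2-5 shRNA (-2.34 ± 0.48, adjusted p = 0.00763) and not in ZEB2 shRNA cells (-1.32 ± 0.46, adjusted p = 0.0893).

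PFKM showed the clearest difference at day 10, with 51.8 and 58.2 CPM in NKX2-5 shRNA, 123 and 121 in ZEB2 shRNA and 274 and 213 in WT cells. The 3 groups did not overlap, the NKX2-5 shRNA value was lower than WT by 2.14 on the log2 scale (-2.14 ± 0.20, adjusted p = 0.000448), the ZEB2 shRNA value was lower by 1.00 (-1.00 ± 0.20, adjusted p = 0.0156), and NKX2-5 shRNA also lay below ZEB2 shRNA cells (-1.14 ± 0.20, adjusted p = 0.0103). PFKP, in contrast, was at 419 and 312, 380 and 326, and 456 and 392 CPM in the same order, with no call. HK1 had 117 and 93.0 CPM in NKX2-5 shRNA and 151 and 137 in ZEB2 shRNA cells against 295 and 236 (-1.33 ± 0.22 and -0.88 ± 0.21, adjusted p = 0.00301 and 0.0303).

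The libraries of NKX2-5 shRNA cells at day 10 were far apart for the inducible genes. HK2 had 17.4 CPM in replicate 1 and 50.9 in replicate 2, against 154 and 98.2 in WT and 133 and 103 in ZEB2 shRNA cells. LDHA had 86.4 CPM in replicate 1 and 283 in replicate 2, against 1156 and 959.5 in WT and 521 and 616 in ZEB2 shRNA cells. Even so, both NKX2-5 shRNA libraries lay below every library of the other groups of that day, and the differences from WT were -1.88 ± 0.48 for HK2 (adjusted p = 0.0163, and -2.85 without NKX2-5 shRNA replicate 2) and -2.52 ± 0.50 for LDHA (adjusted p = 0.00658). HK2 was also lower than in ZEB2 shRNA cells (-1.79 ± 0.47, adjusted p = 0.0362), 1 of the 2 genes, with PFKM, that passed between these lines against 21.3% of all genes. LDHA rose by 1.35 ± 0.45 from day 6 to day 10 in NKX2-5 shRNA cells (adjusted p = 0.0387), which became 0.28 without day 10 replicate 2 and was no longer called without it or without day 6 replicate 1 (1.37) or 2 (1.40). PKM was at 455 and 354 CPM in NKX2-5 shRNA cells against 964 and 723 (-1.05 ± 0.24, adjusted p = 0.011), and LDHB, at 632 and 544 against 792 and 455, overlapped WT.

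Of the calls at day 10, those of SLC2A3, HK1, PFKM and LDHA in NKX2-5 shRNA cells held without any 1 library. HK2 (-1.51) and PKM (-0.82) lost theirs without WT replicate 3, and SLC2A1 (0.72) and SLC2A4 (-2.04) without WT replicate 4. All 4 calls in ZEB2 shRNA cells were lost without some library: without ZEB2 shRNA replicate 3 or 4 for each of them, without WT replicate 3 for HK1 (-0.70) and PFKM (-0.80), and without WT replicate 4 for HK1 (-1.03), SLC2A1 (1.03) and SLC2A3 (1.41). At days 6 and 10 the cardiomyocyte marker sums given above were also lower than in WT in every shRNA line measured. The hepatic and endoderm sums were higher than in WT in NKX2-5 and ZNF503 shRNA cells at day 6 and in both lines at day 10. Smooth muscle and mesenchyme markers summed to 2745 to 5077 CPM in NKX2-5 shRNA and 5023 to 5487 in ZEB2 shRNA cells at day 10, against 1177 to 1760 in WT. At day 6 that sum was below WT in every shRNA line. The part of these cell types in the differences from WT was not tested.

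The other glycolytic enzymes of a list of 21 genes gave the setting of the last step. From day 6 to day 10 in WT cells 14 of the 17 tested rose and 3 did not pass, against 57.5% of all genes called, with a median log2 fold change of 1.18. PFKFB4, which makes an activator of phosphofructokinase, rose by 3.35 ± 0.13 in that step (adjusted p = 1.68e-07), from 18.1 to 181 CPM. From day 0 to day 6 in WT cells, where 8 of the 10 genes described here passed against 60.9% of all genes, 3 of 17 rose and 10 fell. ENO3, the muscle enolase, was the largest rise in that span among genes of the lists at 10 CPM or more (5.15 ± 0.16, from 4.89 to 172 CPM, adjusted p = 4.04e-09), and ALDOC, an aldolase, the largest fall of an enzyme at that level (-1.69 ± 0.16, adjusted p = 1.1e-05). At day 10, 4 of 18 were higher and 10 lower than WT in NKX2-5 shRNA cells, against 43.9% of all genes called, with a median of -1.04, and in ZEB2 shRNA cells 2 of 18 passed, both lower, against 18.2%. ENO3 was among those lower at day 10, in NKX2-5 shRNA (-4.45 ± 0.49, adjusted p = 0.000776) and in ZEB2 shRNA cells (-2.21 ± 0.45, adjusted p = 0.0167). HKDC1, a hexokinase-like gene, was the most raised in NKX2-5 shRNA cells at day 10 among genes of the lists at 10 CPM or more. It had 113 CPM against 3.86 in WT (4.81 ± 0.59, adjusted p = 0.0011).

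**Figure D3:**
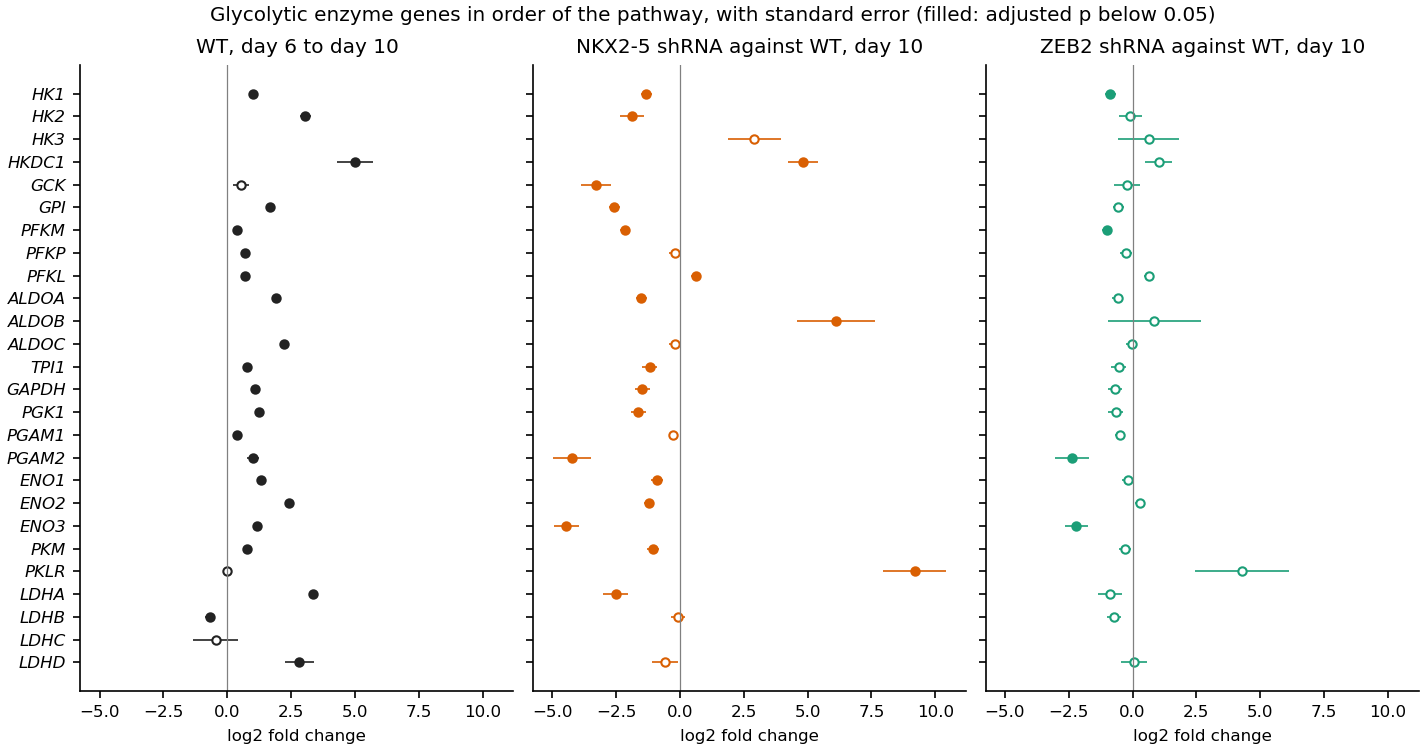
Log2 fold change, with the standard error of the edgeR fit, of the glycolytic enzyme genes tested, in order of the pathway from hexokinase to lactate dehydrogenase: WT cells from day 6 to day 10 (left), NKX2-5 shRNA against WT at day 10 (middle) and ZEB2 shRNA against WT at day 10 (right). Filled points have an adjusted p below 0.05; in the left panel 14 of the 17 enzymes beside the 10 genes are filled and to the right of 0.

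In the other transporter list of 12 genes, 7 were higher and 1 lower than WT of 11 tested at day 6 in NKX2-5 shRNA cells (against 49.1% of all genes called), 7 passed in ZNF503 shRNA cells, all higher (against 55.7%), and 1 in ZEB2 shRNA cells, SLC2A14, also higher (against 11%). At day 10, 7 were higher and 1 lower in NKX2-5 shRNA cells (against 43.9%), and 3 passed in ZEB2 shRNA cells, all higher (against 18.2%). SLC2A5, a fructose transporter, had the largest difference at that day among transporters of at least 10 CPM, with 18.6 CPM in NKX2-5 shRNA cells against 0.809 in WT (4.35 ± 0.64, adjusted p = 0.00199). Among 12 regulators of glycolytic flux, PDK1, the kinase that holds back pyruvate dehydrogenase, was far lower at day 6. Its mean was 1369 CPM in WT cells at day 6, against 19.5 in NKX2-5 shRNA (-6.14 ± 0.17, adjusted p = 2.02e-10), 23.3 in ZNF503 shRNA (-5.89 ± 0.17, adjusted p = 4.73e-10) and 667 in ZEB2 shRNA cells (-1.03 ± 0.14, adjusted p = 0.000372). TXNIP, an inhibitor of glucose uptake, rose by 4.30 ± 0.15 from day 0 to day 6 in WT cells (adjusted p = 7.84e-09) and was lower in ZNF503 shRNA cells at day 6 (-4.60 ± 0.17, adjusted p = 2.75e-09). Of the 12 regulators, 1 was higher and 3 lower in NKX2-5 shRNA cells at day 6 and 2 were higher and 4 lower in ZNF503 shRNA cells, shares below the 49.1% and 55.7% of all genes called there, while in ZEB2 shRNA cells 2 passed, both lower, against 11%. At day 10, 3 were higher and 6 lower in NKX2-5 shRNA cells (against 43.9%) and 2 lower in ZEB2 shRNA cells (against 18.2%). Of 13 genes of pyruvate and lactate handling, 3 were higher and 7 lower at day 6 in NKX2-5 shRNA (against 49.1%), 1 higher and 1 lower in ZEB2 shRNA (against 11%) and 4 higher and 7 lower in ZNF503 shRNA cells (against 55.7%). At day 10, 3 of them were higher and 4 lower in NKX2-5 shRNA cells (against 43.9%) and 5 lower in ZEB2 shRNA cells (against 18.2%). SLC16A1, a lactate transporter, fell by 1.75 ± 0.12 in WT cells from day 6 to day 10 (-1.75, adjusted p = 3.25e-06) while LDHA rose.

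The ratio of 2 isoenzymes within a library needs no scaling between libraries, and 4 such ratios were followed, tested by an exact permutation of day labels within lines and adjusted over 12 tests. The ratio of LDHB to LDHA per kilobase was 7.54 and 6.79 in WT cells at day 0, 11.1 and 10.6 at day 2, 17.1 and 16.5 at day 6, and 1.18 and 0.816 at day 10. Over the lines it rose from day 2 to day 6 by 1.34 on the log2 scale (higher in 4 of 4 lines, exact p = 0.00154, adjusted p = 0.00309) and fell by 3.28 from day 6 to day 10 (lower in 3 of 3 lines, exact p = 0.00926, adjusted p = 0.0123); these are the smallest p values the designs allow. In NKX2-5 shRNA cells at day 10 the 2 libraries gave ratios of 12.6 and 3.31, both above WT, and in ZEB2 shRNA cells 1.20 and 1.10. The transporter ratio SLC2A3 to SLC2A1 moved furthest. It was 5.57 and 5.31 in WT cells at day 0, 35.9 and 36.5 at day 6 and 2.98 and 2.56 at day 10, and at day 6 it reached 140 and 124 in NKX2-5 shRNA, 63.2 and 64.2 in ZEB2 shRNA and 146 and 132 in ZNF503 shRNA cells. Its mean change was 2.47 from day 0 to day 2, 1.81 from day 2 to day 6 and -4.30 from day 6 to day 10, in the same direction in every line (exact p = 0.00154, 0.00154 and 0.00926, adjusted p = 0.00309, 0.00309 and 0.0123).

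**Figure D4:**
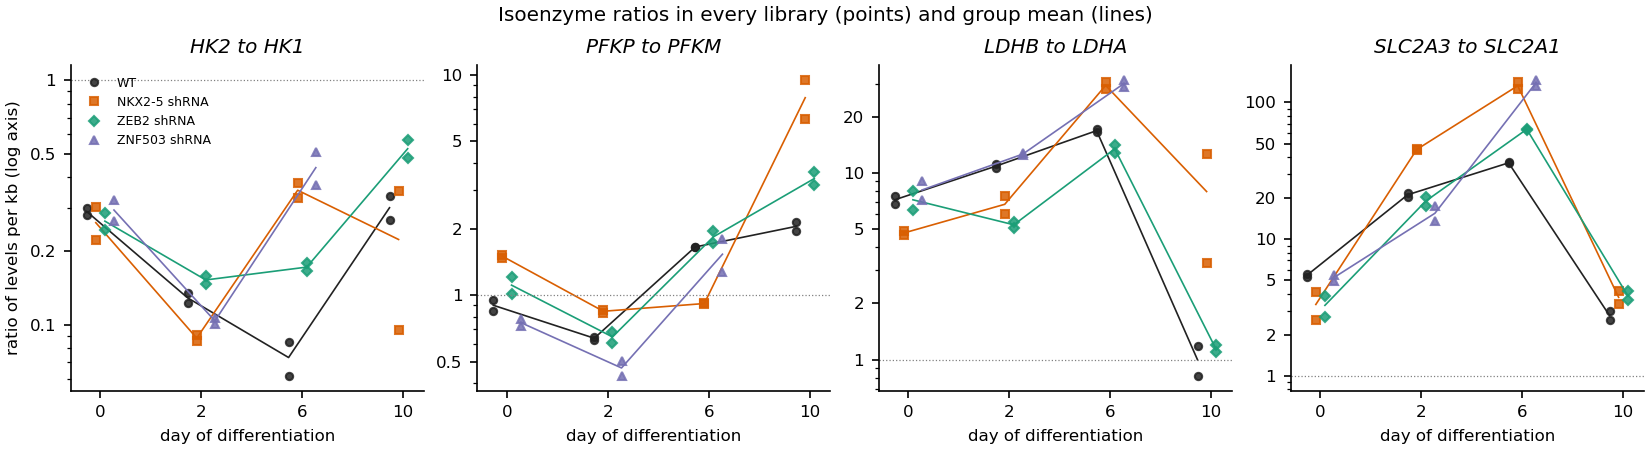
Ratio of the levels per kilobase of 2 isoenzymes (log axes) by day of differentiation; each point is 1 library, lines join means of 2 libraries, colours give the line, and the dotted line marks a ratio of 1. HK2 stays below HK1 in every library, and LDHB to LDHA drops to about 1 in WT and ZEB2 shRNA cells at day 10.

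PFKP to PFKM fell by 0.70 on the log2 scale from day 0 to day 2, rose by 1.18 to day 6, each in the same direction in 4 of 4 lines (exact p = 0.00154, adjusted p = 0.00309), and rose by 1.42 to day 10 in 3 of 3 lines (exact p = 0.00926, adjusted p = 0.0123). At day 10 it was 1.96 and 2.16 in WT, 3.62 and 3.17 in ZEB2 shRNA and 9.51 and 6.30 in NKX2-5 shRNA cells, so the 3 groups did not overlap. HK2 to HK1 fell from day 0 to day 2 by 1.25 (4 of 4 lines, exact p = 0.00154, adjusted p = 0.00309). Its later changes did not pass after adjustment: 0.85 from day 2 to day 6 (higher in 3 of 4 lines, exact p = 0.0478, adjusted p = 0.0574) and 0.90 from day 6 to day 10 (higher in 2 of 3 lines, exact p = 0.194). LDHB to LDHA did not pass from day 0 to day 2 (0.33, higher in 3 of 4 lines, exact p = 0.0586, adjusted p = 0.064). WT was the 1 line in which HK2 to HK1 fell from day 2 to day 6, by 0.83 on the log2 scale (-0.83), to 0.0616 and 0.0851, and all 6 shRNA libraries lay above that. With 2 libraries against 2 no exact test of a single line against WT can go below 0.333, so those differences are values without a test.

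The rows of PKM that differ by the exons printed above were set side by side. The row of the PKM2 form held more reads than that of the PKM1 form in all 30 libraries, by 4.18% to 6.06% of its count in the 24 libraries of days 0, 2 and 6 (median 4.91%). At day 10 the excess was 2.71% and 4.35% in WT, 3.97% and 3.73% in ZEB2 shRNA, and 5.72% and 5.41% in NKX2-5 shRNA cells. Thus 3 of the 4 WT and ZEB2 shRNA libraries of day 10 lay below the range of the earlier days, and both NKX2-5 shRNA libraries lay within it. The rows share all other exons, so this excess stands for PKM2-exon reads minus PKM1-exon reads, and pairs of rows of the PKM1 form differed from each other by 0.0633% to 0.462%. This comparison was added after the rows were seen and has no test.

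**Figure D5:**
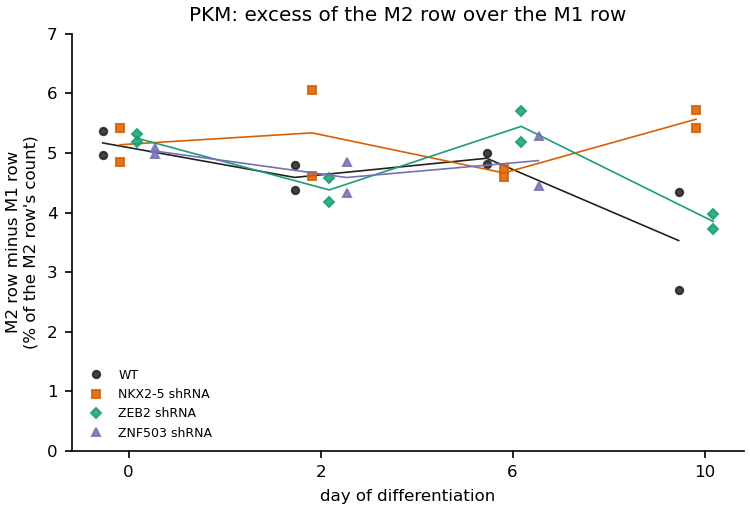
Count of the PKM row with the PKM2 exon minus that of the row with the PKM1 exon, as a percent of the former, by day of differentiation; each point is 1 library, lines join means of 2 libraries and colours give the line. The libraries of days 0, 2 and 6 lie between 4.18% and 6.06%, and WT cells at day 10 reach 2.71%.

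HK1 has 5 rows that differ in their first exons. The row of a further form was taken to stand for the exons common to all, and is called the shared row here. As that form has first exons of its own, each excess is a difference between 2 forms. The row of the widely expressed form exceeded the shared row by 0.963% to 4.11% of its count in all 30 libraries. The row of the erythroid form exceeded the shared row by 7 and 16 reads in the 2 NKX2-5 shRNA libraries of day 10, and by -1 to 2 reads in the other 28. The same 2 libraries had the highest sums of the 9 erythroid markers, 2131 and 2702 CPM, against 18.3 to 102 in WT cells at day 10.

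Over the 15 group means the genes most like each of the 10 were found among 11077 genes by the Pearson correlation of log2(CPM + 1), as a description without a test, since groups share lines and days. LDHA was closest to GAPDH, a glycolytic dehydrogenase (0.93), and ERO1A (0.91), an oxidase of the endoplasmic reticulum. HK2 was closest to ZNF462 (0.91) and HILPDA (0.91), a lipid droplet protein induced by hypoxia. SLC2A3 was closest to SLC2A14 and CMTM7 (0.96), SLC2A1 to MAML2 (0.94), a Notch coactivator, and ZMYND8 (0.94), and HK1 to RRAGD (0.95) and SH3GL3 (0.94). PFKP was closest to AXL, a receptor tyrosine kinase (0.96), and RGS3 (0.95), PFKM to PRKAA2, a catalytic subunit of AMP-activated kinase (0.92), and ARMH4 (0.91), and LDHB to CCZ1B (0.98) and ATG5 (0.97). PKM had the loosest matches, AFAP1L1 (0.80) and BNIP3L (0.79), and SLC2A4 was matched by SEPT5-GP1BB (0.95) and PRPSAP1 (0.94). Within the 10 genes the highest correlations were those of SLC2A1 with HK2 (0.87) and of HK1 with LDHA (0.80), and the lowest that of PFKP with LDHB (-0.82).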

How the data were processed

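RNA of 34 samples of H1 cells was sequenced from stranded libraries. The authors aligned reads to GRCh37 with TopHat 2.0.14 (Bowtie 2.2.1.0), kept 1 best hit per read, and deposited raw counts per RefSeq transcript row made with RSeQC. Rows that overlap share reads, so 1 row stood for each gene. Of 41627 accessions, 40285 (96.8%) matched a symbol, and those unmatched held 2.9% of counts. In 4 columns (WT and ZEB2 shRNA, day 10, replicates 1 and 2) 42704 rows faced the 41627 accessions, so these were not used.

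Here edgeR 4.0.16 (R 4.3.3) was used for TMM scaling, a filter on low counts (filterByExpr), the quasi-likelihood test and Benjamini-Hochberg adjustment over all genes, with calls at an adjusted p below 0.05. Lines were compared within each day, days within each line, and the change from day 0 to day 6 by an interaction term in a fit of all libraries. CPM values use TMM-scaled totals, and levels per kilobase divide them by the summed exon length of the gene's canonical GENCODE transcript. Isoenzyme ratios (log2 of counts + 1) were tested by exact two-sided permutation of day labels within lines. Alternatives were DESeq2 1.42.0, other scalings and filters, 1 fit of all libraries, the study's fold thresholds, replicate blocks and leaving out each library. The test was checked on simulated counts of day 6 libraries, with 16152 genes. It recovered 70.0% of 100 genes changed by 1 on the log2 scale and 91.8% of 98 genes changed by 2. Far fewer genes were changed in the simulation than were called in NKX2-5 shRNA cells against WT at day 6. Named pathway genes come from the up to 2 largest called rises and falls over all lists per comparison, at a mean of at least 10 CPM in the higher group, and the 2 genes most like each of the 10 are given.

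The 10 genes and the lists were chosen with earlier results of these data known. The study describes its replicates as biological, with 2 samples per group and 4 for WT and ZEB2 shRNA at day 10, of which 2 each were used here.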

Additional observations from a re-analysis of the deposited data

Results flagged for a closer look

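The change of each gene from day 0 to day 6 in an shRNA line was set against its change in WT cells by an interaction term (edgeR, adjusted over all genes), and 11 differences of at least 1 on the log2 scale passed. In NKX2-5 shRNA cells the change in HK1 was lower than in WT by 2.34 (-2.34 ± 0.28, SE, adjusted p = 1.03e-06) and that in PFKP likewise (-2.34 ± 0.24, adjusted p = 1.39e-07). PKM (-1.23 ± 0.24, adjusted p = 0.000477), SLC2A1 (-1.28 ± 0.30, adjusted p = 0.0019), SLC2A4 (-2.27 ± 0.60, adjusted p = 0.00572) and LDHA (-1.40 ± 0.42, adjusted p = 0.0125) also had lower changes, and SLC2A3 a higher one (1.38 ± 0.18, adjusted p = 4.16e-06). The LDHA call was lost without WT day 0 replicate 1 (-1.33), and the other 6 held without any 1 library, although SLC2A1 moved as far as -0.80 and PKM as far as -0.79 in those fits. Part of the difference in SLC2A1, PFKP, PKM and LDHA lay at day 0, where NKX2-5 shRNA cells were already above WT. Mean levels at day 0 were 261 against 133 CPM for SLC2A1, 624 against 372 for PKM and 734 against 411 for LDHA. At day 6 SLC2A1 was not called, with means of 32.3 against 39.9 CPM.

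In ZNF503 shRNA cells HK1 (-1.85 ± 0.28, adjusted p = 2.73e-05) and SLC2A4 (-3.08 ± 0.63, adjusted p = 0.000748) had lower changes than in WT and SLC2A3 a higher one (1.49 ± 0.18, adjusted p = 2.39e-06). In ZEB2 shRNA cells the change in SLC2A3 was higher (1.11 ± 0.18, adjusted p = 0.000653). These 4 held without any 1 library. The 3 comparisons share the WT libraries, and SLC2A3 may have exchanged reads with SLC2A14.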

How the results depend on the processing

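With edgeR, calls of the 10 genes numbered 27 of 40 in NKX2-5 shRNA cells, 10 of 40 in ZEB2 shRNA cells and 13 of 30 in ZNF503 shRNA cells against WT, 22 in WT cells over time (3 steps), 57 in shRNA lines over time (8 steps) and 14 for the change from day 0 to day 6. DESeq2 gave 26, 11 and 13 for the first 3. Of all genes, edgeR called 15.9% to 49.1%, 0.49% to 18.2% and 7.53% to 55.7% in the single comparisons of these 3 lines with WT. For the other 3 counts the shares were 44.1% to 57.5%, 28.3% to 65.9% and 3.9% to 33.1%. No result reversed. In 1 fit of all libraries, ZNF503 shRNA against WT gave 8 calls, and the cause was not tested. With the study's larger fold thresholds, which most of these changes do not reach, the counts were 0, 0, 0, 4, 9 and 1 in the order above. Leaving out each library gave 23 to 28, 6 to 10, 12 to 13, 20 to 22, 52 to 58 and 12 to 15 calls. The 6 came without ZEB2 shRNA day 6 replicate 2 or ZEB2 shRNA day 10 replicate 3 or 4.

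Over 19 pairs of same-numbered libraries the correlation of deviations was -0.28 to 0.39. The 4 pairs over 0.1 were all among the 6 of day 2 (0.11 to 0.39), so same-numbered libraries tended to deviate together on that day and not on the others. As not every pair passed 0.1, the numbers were taken as names. With the replicate number as a block the counts were 19 (19 without it over the same 3 comparisons), 13 (10), 12 (13), 15 (12), 47 (48) and 14 (14). With the crossed pairing at day 10, chosen after seeing the data for a correlation of -0.21, ZEB2 shRNA against WT gave 7 calls (4 without it).

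Without a library, the mean log2 change of LDHB to LDHA from day 0 to day 2 ranged from 0.28 to 0.37, that of HK2 to HK1 from 0.80 to 0.91 from day 2 to day 6, and from 0.58 to 1.21 from day 6 to day 10. Each passed in at least 1 of those fits: the first without ZEB2 shRNA day 0 replicate 2, the second without WT day 2 replicate 1 or 2, the third without NKX2-5 shRNA day 10 replicate 1. Leaving out TMM scaling shifted the log2 fold changes of the 10 genes by a median of -0.18 (WT, day 2 to day 6) to 0.20, and by over 0.1 in 10 of 29 comparisons, among them ZEB2 shRNA against WT at day 10 (0.19). With 2 libraries per group and 13 to 431 counts, SLC2A4 was the least precise.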
